A study of Mus musculus with 8 samples.

Results

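Schwann cell and myelin genes were examined in bulk RNAseq libraries of pericytes and smooth muscle cells (SMCs) sorted from mouse hindlimb muscle. The 7 genes Mbp, Pmp22, Sox10, S100b, Prx, Cdh19 and Mag were taken by name from the 37979 genes in the deposited expression table, and all 7 were above 0 in at least 1 library and entered the fit. Prx was picked because its pattern across the libraries had been noted, so its values are a description and carry no test. Both groups came from untreated Ai14+/-;SM22α-Cre+ mice of both sexes, 3 to 4 months old. In these mice, Cre under the SM22α promoter permanently switches on tdTomato in every cell that has used the promoter. Pericytes were PDGFRβ+tdTomato- and SMCs were PDGFRβ+tdTomato+, after removal of CD31+, CD45+ and DAPI-high events. There were 4 libraries of each, numbered 1 to 4, and each held about 60000 cells pooled from several sorts. Schwann cells were not a sorted population. Levels are FPKM, that is, fragments scaled to transcript length and to the mapped reads of the library, and a table of raw counts that the labels name was not analysed here, so no counting error is given.

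Schwann cells are the glia of peripheral nerve, and the intramuscular nerves run beside the vessels from which mural cells are isolated. Myelinating Schwann cells wrap large axons in a compacted membrane under the control of the transcription factors Sox10 and Egr2, whereas non-myelinating Schwann cells ensheath groups of thin axons and keep a distinct set of adhesion and channel genes. Mbp and Pmp22 encode structural myelin proteins, Mag an adhesion receptor that faces the axon, and Prx (periaxin) a scaffold that ties the outer Schwann cell membrane to the basal lamina. S100b is a calcium-binding protein of glia, and Cdh19 is a cadherin of the Schwann cell lineage.

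The libraries differed from one another in several ways. Pericyte library 2 stood apart, with FPKM values that summed to 1190435 against 656405 to 782014 in the other 7 libraries, and it held the lowest pericyte value of Sox10, Prx, Mag, Mbp and Cdh19. Without it the log2 differences, pericytes minus SMCs, were 0.95 for Sox10, 0.96 for Prx, 1.15 for Mag, 0.93 for Mbp, -0.66 for Pmp22, -0.93 for S100b and -0.80 for Cdh19, and Cdh19 was the only one of the 6 tested genes to pass (limma q = 0.0384). The 10 lymphocyte markers summed to 2229 to 4287 FPKM in pericyte libraries and 28.1 to 61.5 FPKM in SMC libraries, whereas the 7 fibroblast markers summed to 466 to 847 FPKM in pericytes and 4311 to 4994 FPKM in SMCs. The 10 endothelial markers summed to 125 to 223 FPKM in pericytes and 589 to 1593 FPKM in SMCs. Pdgfrb, the sorting marker, had 3.21 to 17.6 FPKM in pericytes and 15.6 to 91.5 FPKM in SMCs, and of 7 pericyte markers Rgs5 alone was called, as higher in SMCs (limma q below 0.05). The 6 smooth muscle markers had limma q values of 0.0979 to 0.577. Libraries also differed by replicate number in the same way in both groups. Xist, transcribed from the inactive X chromosome, had 7.80 to 9.81 FPKM in the 4 libraries numbered 1 and 2 and at most 0.0118 FPKM in the 4 numbered 3 and 4. The Y-linked gene Ddx3y had at most 0.0316 FPKM in libraries 1 and 2 and 30.2 to 43.6 FPKM in libraries 3 and 4. Eif2s3y, also Y-linked, had at most 0.0585 FPKM against 30.0 to 47.7 FPKM. The labels give no sex for any library. Whatever else differed between these libraries cannot be told apart from the sex-linked transcripts. In bulk RNA, fewer Schwann cells in a library and less RNA per Schwann cell cannot be told apart.

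The 7 genes spanned a wide range of levels. In pericytes the order by mean FPKM was Pmp22 (390.4 ± 255), Mbp (234 ± 169.7), Prx (19.4 ± 19.9), Mag (11.7 ± 10.2), S100b (7.89 ± 3.67), Sox10 (3.71 ± 3.98) and Cdh19 (1.87 ± 1.14; SD, n = 4 each). In SMCs it was Pmp22 (623 ± 61.2), Mbp (151 ± 88.8), S100b (14.4 ± 2.69), Prx (13.7 ± 12.9), Mag (6.27 ± 5.10), Cdh19 (5.07 ± 1.62) and Sox10 (1.58 ± 1.04; SD, n = 4 each). Neighbours in the pericyte order overlapped in range, except that Mbp lay above Prx in every library. In SMCs, the ranges of Pmp22, Mbp and S100b did not overlap, nor did those of Cdh19 and Sox10, and the genes from S100b to Cdh19 overlapped with their neighbours.

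Sox10, the lineage transcription factor, separated the libraries by number rather than by group. It spans 78985343 to 78994920 of chromosome 15 (NCBI Build 37, minus strand). Its level in pericyte libraries 1 to 4 was 0.543, 0.0202, 7.59 and 6.66 FPKM. SMC values were 0.622, 0.751, 2.62 and 2.34 FPKM. Libraries 3 and 4 were above libraries 1 and 2 in both groups, and the groups overlapped. The log2 difference, pericytes minus SMCs, was 0.40 (standard error 0.77), and it did not pass the test (limma with Benjamini-Hochberg adjustment over 27414 genes, q = 0.785). By same-numbered pair the log2 difference was -0.07 and -0.78 in pairs 1 and 2 and positive in pairs 3 and 4, up to 1.25. The overall sign turned to -0.08 without pericyte library 3, to -0.02 without pericyte library 4 and to -0.0046 with a pseudocount of 0.1.

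Prx and Mag both lie on chromosome 7. Their promoters are shown as those of a scaffold and an adhesion receptor of the same sheath for which RefSeq windows were matched. The 250 bases before the annotated start are from RefSeq (GRCm38.p6), written 5′ to 3′ on the gene's strand. Capitals mark matches to ACAAT or ACAAAG, the cores bound by SOX factors, or to GNGTGGGNG, an EGR-type site, searched on both strands.
Prx, chr7:27499074-27499323, plus strand: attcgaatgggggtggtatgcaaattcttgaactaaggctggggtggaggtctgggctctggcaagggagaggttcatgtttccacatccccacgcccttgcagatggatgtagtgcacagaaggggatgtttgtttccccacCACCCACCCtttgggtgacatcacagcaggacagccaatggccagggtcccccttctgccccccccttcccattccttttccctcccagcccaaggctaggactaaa
Mag, chr7:30914923-30915172, minus strand: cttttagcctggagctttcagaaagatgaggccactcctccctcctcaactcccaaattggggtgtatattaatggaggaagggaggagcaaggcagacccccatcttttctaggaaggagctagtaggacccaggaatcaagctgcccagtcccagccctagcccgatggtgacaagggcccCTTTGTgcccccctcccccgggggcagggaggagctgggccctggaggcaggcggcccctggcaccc

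The Prx window held a single EGR-type match on the reverse strand, 107 to 99 bases before the start, and no SOX core. Of the 3 Mag windows in RefSeq the one farthest upstream is printed, and it held a single ACAAAG match on the reverse strand, 67 to 62 bases before the start, and no EGR-type match. An overlapping Mag window held the same site, 126 to 121 bases before its own start. The remaining Mag window held none of these matches. Of 32851 promoter windows of this length, 27.7% held ACAAT, 16.5% held ACAAAG and 12.7% held GNGTGGGNG. RefSeq windows were matched for 4 of the 7 genes, Prx, Mag, Pmp22 and S100b, and none of the 5 windows of Pmp22 and S100b held any of these matches. A match describes the letters only.

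Prx spans 28284343 to 28305233 of chromosome 7 (NCBI Build 37, plus strand). It had 3.60, 1.02, 33.4 and 39.6 FPKM in pericyte libraries 1 to 4. The SMC libraries had 2.12, 3.07, 22.5 and 26.9 FPKM in the same order. In each group libraries 3 and 4 were far above libraries 1 and 2, and the highest library was 38.9 times the lowest in pericytes and 12.7 times in SMCs. The group means differed by 0.16 on the log2 scale, against standard deviations of 2.15 in pericytes and 1.65 in SMCs. The pericyte library was higher in pairs 1, 3 and 4, by 0.56, 0.55 and 0.54, and lower in pair 2, by -1.01. Gm15541 overlaps Prx on the opposite strand and had 0.600 to 1.79 FPKM, with its lowest values in pericyte library 4 and SMC library 4. Whether reads were counted by strand is not given in the sources used here.

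Mag spans 31684202 to 31699851 of chromosome 7 (NCBI Build 37, minus strand). It had 3.62, 2.26, 22.1 and 18.9 FPKM in pericyte libraries 1 to 4. Among SMCs the 4 libraries had 1.93, 1.82, 9.93 and 11.4 FPKM. As with Prx, all libraries numbered 3 and 4 lay above all numbered 1 and 2. The pericyte library was higher in all 4 pairs, by 0.20 to 1.08 on the log2 scale. The log2 difference was 0.66 (standard error 0.85, limma q = 0.674), and it passed only when replicates 1 and 2 against replicates 3 and 4 entered the fit as a covariate (limma q = 0.0207). The nearest genes on either side are on the same strand. Hamp2, 7540 bases away, was listed at 0 in 7 libraries and had 0.232 FPKM in SMC library 1. The B cell gene Cd22, 18841 bases away, had 13.0 to 38.0 FPKM in pericytes and 0.303 to 3.71 FPKM in SMCs (log2 difference 3.77, limma q = 0.00157). Whether reads of Cd22 bear on the level of Mag was not tested.

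Mbp, the major basic protein of myelin, was far more abundant. It had 111.7, 73.1, 427 and 324 FPKM in pericyte libraries 1 to 4. Levels in SMCs were 81.5, 67.7, 237 and 217 FPKM. Libraries 3 and 4 were again above libraries 1 and 2 in both groups, and the pericyte library was higher in all 4 pairs, by 0.11 to 0.85 on the log2 scale. The log2 difference between groups was 0.49 (standard error 0.70, limma q = 0.701). It was 0.09 without pericyte library 3 and 0.93 without pericyte library 2. The Mbp gene also gives golli transcripts, which are known in immune cells, and FPKM per gene do not part them from the myelin transcripts.

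Pmp22, a membrane protein of compact myelin that fibroblasts also express, varied in pericytes and little in SMCs. It spans 62942484 to 62973049 of chromosome 11 (NCBI Build 37, plus strand). It had 166.9, 186, 682 and 527 FPKM in pericyte libraries 1 to 4. The same-numbered SMC libraries had 700.2, 553, 606 and 632 FPKM. Pericyte libraries 1 and 2 were below the other 6, whereas SMC libraries differed by at most 1.27 times. By pair the log2 difference was -2.06 and -1.57 in pairs 1 and 2, and 0.17 and -0.26 in pairs 3 and 4. The difference over all libraries was -0.93 (standard error 0.48, limma q = 0.243).

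S100b and Cdh19 were the only genes of the 7 whose groups did not overlap, which 24.6% of all genes tested also showed. S100b spans 75716598 to 75723904 of chromosome 10 (plus strand) and had 2.97, 7.76, 11.7 and 9.07 FPKM in pericyte libraries 1 to 4. SMC values were 12.9, 12.3, 18.3 and 13.9 FPKM. All SMC values exceeded all pericyte values, and the log2 difference was -0.90 (standard error 0.35, limma q = 0.126). Dip2a, which overlaps S100b on the opposite strand, had 0.137 to 3.78 FPKM. Cdh19 spans 112785772 to 112873949 of chromosome 1 (NCBI Build 37, minus strand) and had 2.11, 0.214, 2.35 and 2.80 FPKM in pericyte libraries 1 to 4. The SMC libraries had 3.76, 4.71, 4.39 and 7.43 FPKM in the same order. Pericyte library 2 was the lowest, and the SMC library was higher in all 4 pairs. The log2 difference of Cdh19 was -1.17 (standard error 0.38, limma q = 0.0709). It passed when genes that did not reach 1 FPKM in 4 libraries were dropped (q = 0.0256), with the covariate for replicates 1 and 2 against 3 and 4 (q = 0.0386) and without pericyte library 2 (q = 0.0384).

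**Figure D1:**
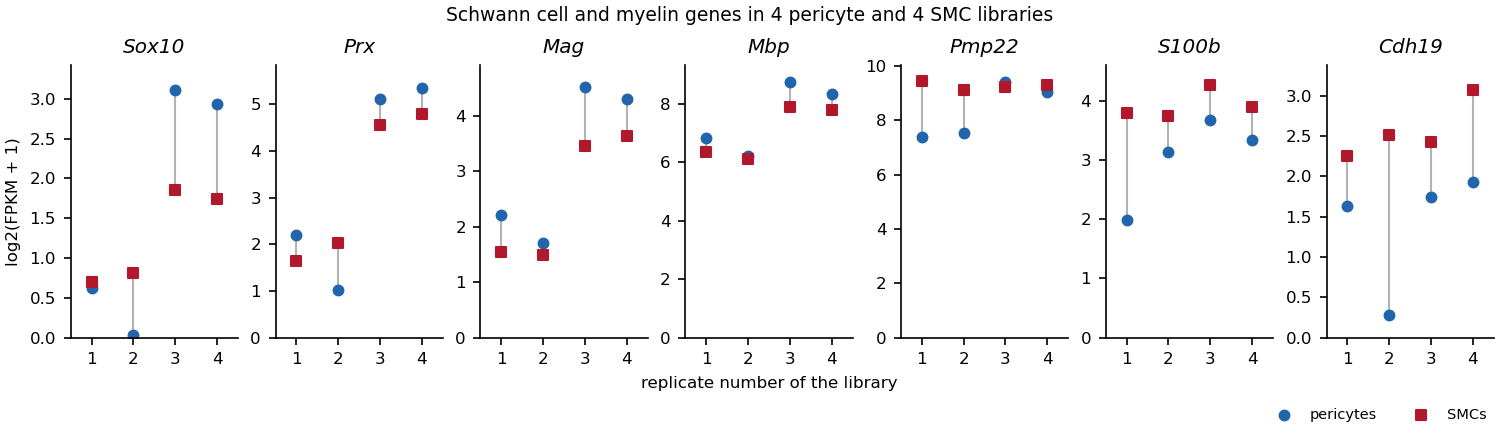
Level of each of the 7 genes, as log2(FPKM + 1), against the replicate number of the library; circles are pericyte libraries, squares are SMC libraries, and a grey line joins same-numbered libraries. Prx lies at 3.60 and 1.02 FPKM in pericyte libraries 1 and 2 and at 33.4 and 39.6 FPKM in libraries 3 and 4, and SMC libraries 3 and 4 also lie above SMC libraries 1 and 2.

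Of the 6 genes other than Prx, 0 passed as higher in pericytes and 0 as higher in SMCs (limma, q value below 0.05). Among all 27414 genes tested, 10.6% passed with a higher level in pericytes and 11.2% with a higher level in SMCs, that is, 2917 and 3060 genes. With values scaled to TPM, the counts were 2117 and 3734. Among the 13612 genes averaging 1 FPKM or more, the shares on the FPKM scale were 19.7% and 19.5%. Over all 27414 genes, with a log2 difference of more than 2 also required, they were 3.24% and 2.66%. The median log2 difference of the 6 genes was -0.25, beside 0.02 over all genes tested.

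The spread of each gene was divided into a part between same-numbered pairs, a part between groups and a remainder, as shares of the sum of squares of log2(FPKM + 1). Same-numbered libraries are not stated to share animals. The share between pairs also holds any difference of libraries 1 and 2 from libraries 3 and 4. Over the 13612 genes averaging 1 FPKM or more, the median share was 24.8% between pairs and 49.0% between groups. Mbp had 91.6% between pairs and 6.55% between groups. Mag had 90.6% and 7.69%, and Sox10 had 79.7% and 3.59%. Prx, chosen for this pattern, had 95.6% and 0.230%. The remaining genes were closer to the median gene, with 35.9% and 47.6% for S100b, 31.6% and 34.8% for Pmp22, and 25.8% and 56.9% for Cdh19. Apart from Prx, libraries 3 and 4 were above libraries 1 and 2 in both groups for 4 of 6 genes (Mbp, Sox10, S100b and Mag), and 15.5% of the 13612 genes showed this order. For Pmp22 and Cdh19, this order held in pericytes and not in SMCs.

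**Figure D2:**
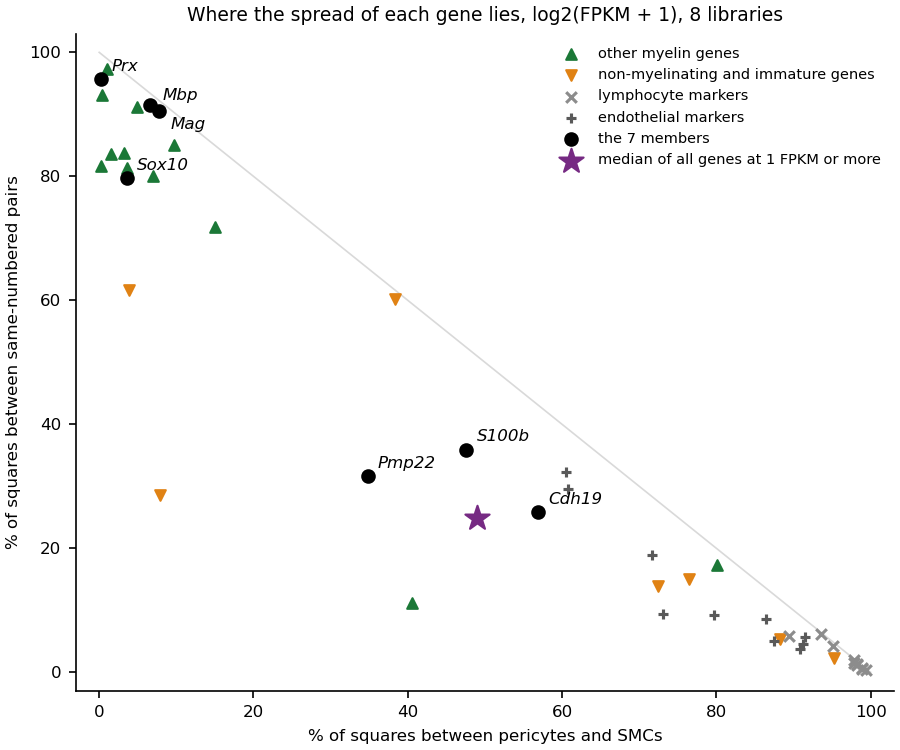
Share of each gene's sum of squares between pericytes and SMCs (x axis, %) against the share between same-numbered pairs (y axis, %); the grey line marks a sum of 100% and the star marks the median gene. Prx, Mbp, Mag and Sox10 lie at the upper left (79.7% to 95.6% between pairs) with most other myelin genes, whereas lymphocyte markers lie at the lower right.

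A further 51 Schwann cell genes were grouped by role, and all 51 were tested, 40 of them averaging 1 FPKM or more. Of the 51 genes, 1 passed as higher in pericytes and 8 as higher in SMCs (limma q below 0.05), beside 10.6% and 11.2% of all genes tested and 19.7% and 19.5% of genes averaging 1 FPKM or more, and 42 did not pass. The median log2 difference was -0.13. Among the 40 genes averaging 1 FPKM or more, 26 had libraries 3 and 4 above libraries 1 and 2 in both groups.

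Among 12 other genes of the myelin membrane, libraries 3 and 4 were above libraries 1 and 2 in both groups for 11, beside 15.5% of the genes averaging 1 FPKM or more. Their median share of squares was 82.7% between pairs and 4.24% between groups. However, Cnp had 17.3% between pairs and 80.1% between groups, and Gal3st1 had 11.1% and 40.5%. Gal3st1 was the gene without this order, with 0.901, 0.671, 0.294 and 0.452 FPKM in SMC libraries 1 to 4. Mal, a proteolipid of myelin membranes, had 4.24, 2.61, 30.8 and 20.6 FPKM in pericyte libraries 1 to 4. Among SMCs the 4 libraries had 7.01, 5.48, 14.1 and 11.3 FPKM. Its log2 difference was 0.11 (standard error 0.74, limma q = 0.943). Fa2h, which hydroxylates the fatty acids of myelin lipids, had 0.307 to 8.75 FPKM in pericytes and 0.288 to 1.93 FPKM in SMCs (limma q = 0.542). Cnp, a myelin enzyme that is also made outside glia, was the gene higher in pericytes, at 112 to 181 FPKM against 26.7 to 65.4 FPKM (log2 difference 1.76, limma q = 0.00831). Ncmap, another myelin membrane protein, is listed under its older symbol A330049M08Rik and had 18.3 to 69.8 FPKM in pericytes and 21.5 to 45.7 FPKM in SMCs (limma q = 0.799).

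Of the 7 genes of non-myelinating and immature Schwann cells, 4 were higher in SMCs and 3 (Gfap, Fabp7 and Art3) did not pass, where 11.2% of all genes tested and 19.5% of those averaging 1 FPKM or more were higher in SMCs. The median share of squares was 72.4% between groups and 15.1% between pairs, beside 49.0% and 24.8% for the median gene, but only 3.86% and 7.89% lay between groups for Gfap and Fabp7, and Art3 had 60.2% between pairs. No test compared this list with the myelin list. Scn7a, a sodium channel of non-myelinating Schwann cells, had 0.966, 0.345, 0.645 and 0.936 FPKM in pericyte libraries 1 to 4. Levels in SMCs were 6.11, 8.61, 9.70 and 12.5 FPKM. Its log2 difference was -2.55 (standard error 0.22, limma q = 2.5e-04). Matn2, a matrix adaptor protein, had 14.6 ± 6.35 FPKM in pericytes and 88.4 ± 5.90 FPKM in SMCs (SD, n = 4; log2 difference -2.64, limma q = 0.00208). Ednrb, the endothelin B receptor, had 7.26 ± 2.08 and 35.6 ± 20.2 FPKM (SD, n = 4; limma q = 0.0130). Gap43, a growth-associated protein, had 0.559 ± 0.273 and 2.00 ± 0.730 FPKM (SD, n = 4; limma q = 0.0212), and its q value rose above 0.05 in 6 of 8 fits with a library left out, reaching 0.0642. The most abundant gene of the list, Art3, had 51.8 ± 21.6 and 108.0 ± 59.5 FPKM (SD, n = 4; limma q = 0.205). Of the perineurial and endoneurial markers, which belong to the other cells of the nerve sheath, 6 of 8 were higher in SMCs, with a median log2 difference of -2.35 and sums of 82.9 to 107.6 FPKM in pericytes and 226 to 409 FPKM in SMCs. Of the fibroblast markers 7 of 7, and of the endothelial markers 8 of 10, were also higher in SMCs. The part of these cells in the differences was not tested.

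In the lists of transcription factors (10 genes), periaxin complex and basal lamina receptors (7), axon-glia adhesion (8) and glial ligands and receptors (7), 1 gene each was higher in SMCs, beside 11.2% of all genes tested and 19.5% of those averaging 1 FPKM or more. Lama2, a laminin chain of the Schwann cell and muscle basal lamina that fibroblasts also make, had 3.23 ± 0.967 FPKM in pericytes and 18.7 ± 2.27 FPKM in SMCs (SD, n = 4; log2 difference -2.24, limma q = 2.3e-04). Cdh2 (N-cadherin) had 1.87 ± 1.22 and 6.91 ± 1.70 FPKM (SD, n = 4; limma q = 0.0130). Ngfr, the low-affinity neurotrophin receptor, had 0.393 ± 0.0784 and 1.56 ± 0.549 FPKM (SD, n = 4; limma q = 0.00826). Nfatc4, a transcription factor, had 0.466 ± 0.119 and 3.44 ± 1.35 FPKM (SD, n = 4; limma q = 0.00185). The groups did not overlap for any of the 9 genes that passed, as for 24.6% of all genes tested. The same direction in all 4 pairs follows from that and is no further result. Cnp was the only gene of the 9 with libraries 3 and 4 above libraries 1 and 2 in both groups, beside 15.5% of the genes averaging 1 FPKM or more.

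The 2 most abundant genes of each of these 4 lists did not pass. Dhh, the hedgehog ligand of Schwann cells, had 0.431, 1.27, 17.7 and 10.9 FPKM in pericyte libraries 1 to 4. The same-numbered SMC libraries had 2.56, 3.04, 7.33 and 6.64 FPKM (limma q = 0.964). Cntf, a neurotrophic factor of myelinating Schwann cells, had 2.81 to 14.3 FPKM in pericytes and 2.95 to 10.4 FPKM in SMCs (limma q = 0.758), with 90.7% of squares between pairs. Drp2, which binds periaxin, had 11.5 ± 8.43 FPKM in pericytes and 10.3 ± 2.82 FPKM in SMCs (SD, n = 4; limma q = 0.886). Dag1, the dystroglycan gene, had 41.1 ± 31.5 and 68.8 ± 28.9 FPKM (SD, n = 4; limma q = 0.321), and Utrn (utrophin) had 5.19 to 17.1 and 7.25 to 31.0 FPKM (limma q = 0.768). Egr2, the zinc finger regulator of myelin genes that is also induced in other cells, had 31.9 ± 11.8 and 49.6 ± 2.16 FPKM (SD, n = 4; limma q = 0.129). Zeb2 had 11.4 ± 3.73 and 15.8 ± 5.71 FPKM (SD, n = 4; limma q = 0.448). Sirt2 had 65.9 ± 9.68 and 84.1 ± 11.9 FPKM (SD, n = 4; limma q = 0.135), and the adhesion molecule Ncam1 had 11.3 ± 3.69 and 18.2 ± 2.43 FPKM (SD, n = 4; limma q = 0.0918).

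**Figure D3:**
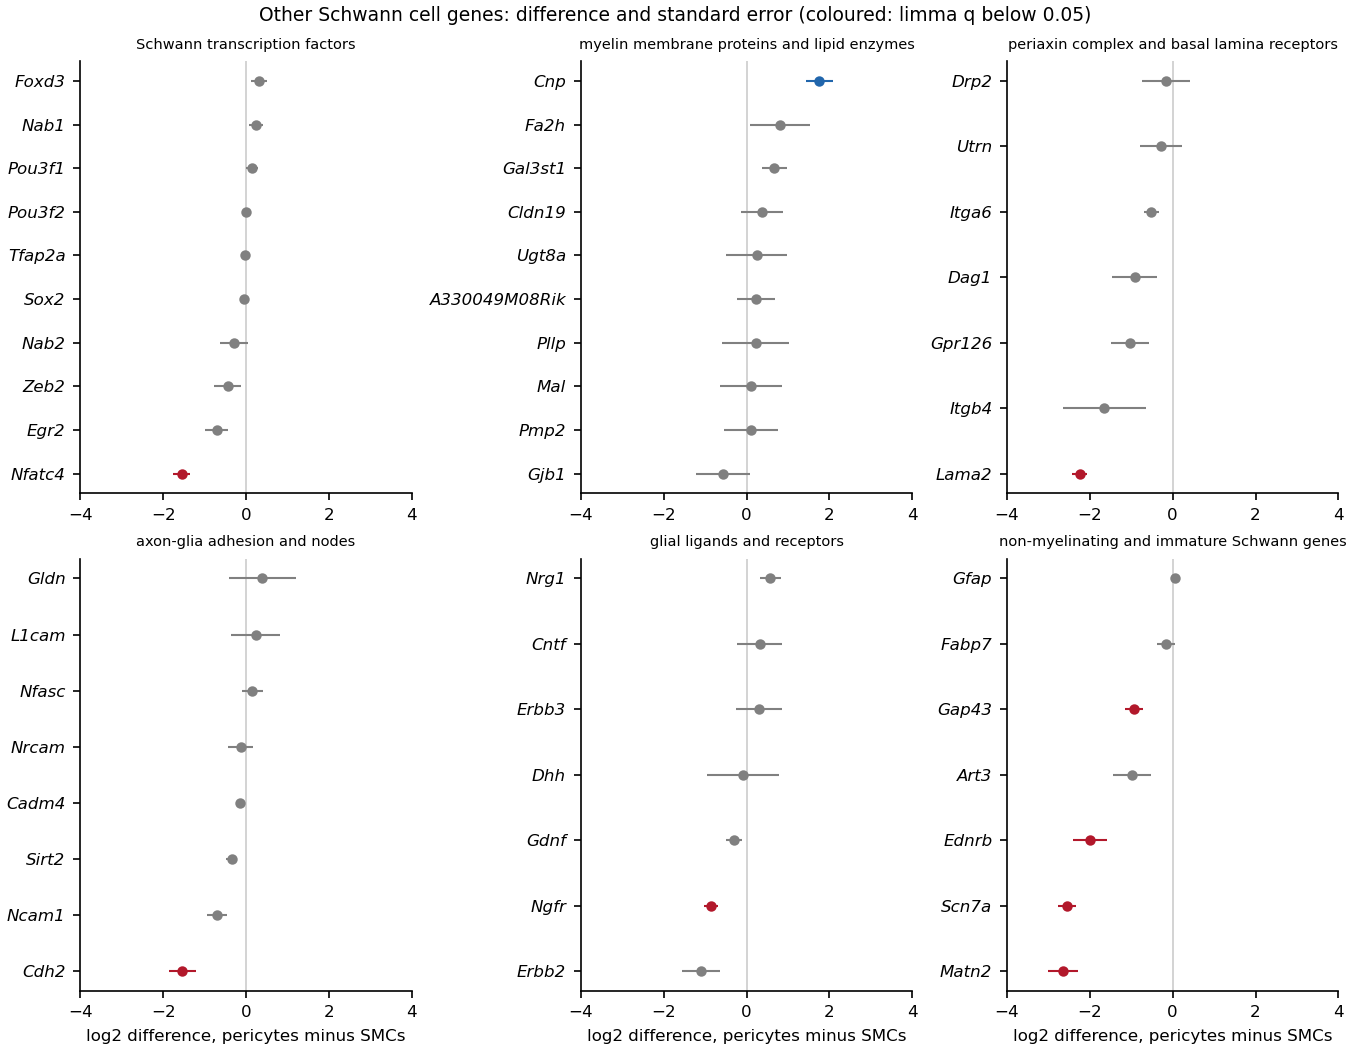
Log2 difference (x axis, pericytes minus SMCs) with its standard error for 49 of the 51 other Schwann cell genes, in 6 lists by role; blue marks genes higher in pericytes and red genes higher in SMCs at a limma q value below 0.05. Cnp is the blue point at 1.76, and Matn2 and Scn7a are the lowest red points, at -2.64 and -2.55.

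Genes with a pattern most like each of the 7 were found by the mean absolute difference of log2(FPKM + 1), centred per gene, over 8 libraries and the 13611 other genes averaging 1 FPKM or more. For Prx they included the Y-linked gene Uty (0.32), Aatk (0.33), Mag (0.51) and Pbxip1 (0.57), where the median gene differed by 1.66. Uty had at most 0.0174 FPKM in libraries 1 and 2 and 9.07 to 12.2 FPKM in libraries 3 and 4. For Sox10 they were Mal (0.15), Fa2h (0.22) and Gldn (0.23). For Mag they were Gldn (0.20), Csf2rb (0.21) and Mbp (0.22), and for Mbp they were Nr4a2 (0.16), Ugt8a (0.17) and Tnrc18 (0.18). The genes closest to Pmp22 were Cxcl16, Ripk1 and Gm9766 (0.14 to 0.25). Those closest to S100b were Rab6a, Pgrmc2 and Kcnk6 (0.14 to 0.17), and those closest to Cdh19 were Ccpg1, Cyfip1 and Dstyk (0.13 to 0.15). None of the 9 genes closest to Pmp22, S100b and Cdh19 was on a Schwann cell list. Only 40 of the 51 further Schwann cell genes were among the 13611 genes compared, so this says little. The median gene differed by 0.80 from Pmp22, 0.69 from S100b and 0.76 from Cdh19. From Sox10, Mag and Mbp it differed by 1.06, 1.21 and 1.02.

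**Figure D4:**
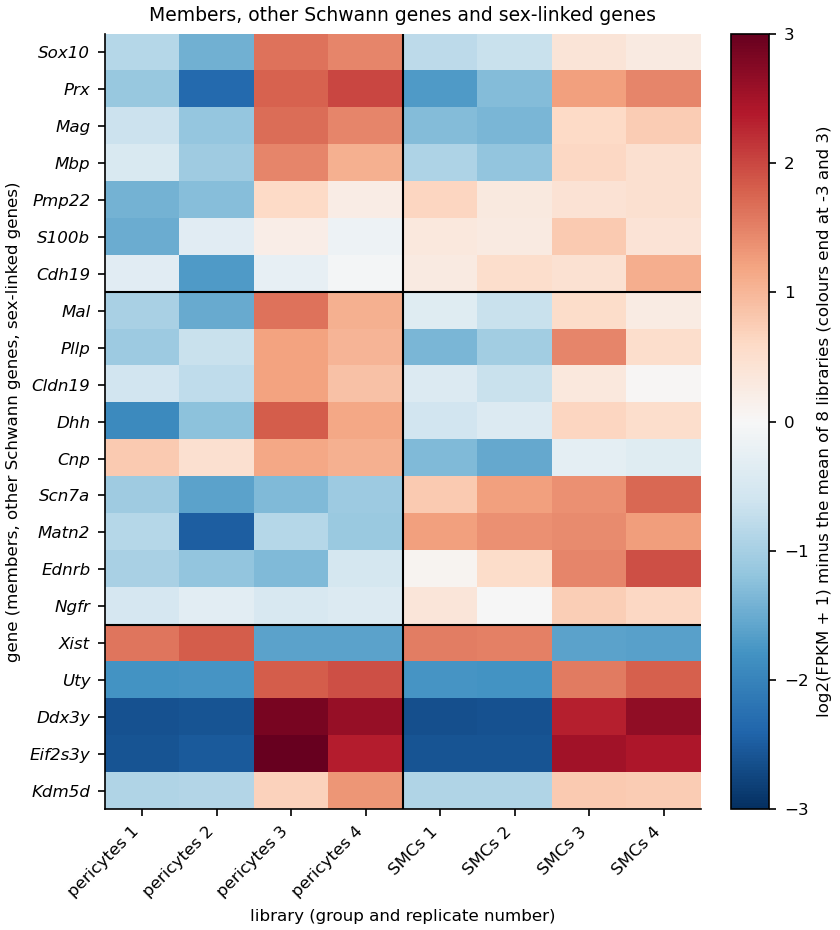
Log2(FPKM + 1) of each gene minus its mean over 8 libraries (colour; red above, blue below), for the 7 genes, 9 other Schwann cell genes and 5 sex-linked genes, with libraries as columns. Sox10, Prx, Mag, Mbp, Mal and the Y-linked genes are red in libraries 3 and 4 of both groups, Xist is red in libraries 1 and 2, and Scn7a, Matn2 and Ednrb are red in SMCs.

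Markers of other cells were summed beside these genes. The order of libraries 3 and 4 above 1 and 2 in both groups held for 0 of 10 lymphocyte, 0 of 7 fibroblast and 1 of 10 endothelial markers. It held for 6 of 7 pericyte, 2 of 6 smooth muscle and 3 of 8 perineurial and endoneurial markers, and for 15.5% of the genes averaging 1 FPKM or more. For 0 of 6 adipocyte, 0 of 5 oligodendrocyte, 1 of 9 neuron and 2 of 5 melanocyte markers the order also held. Of these lists only 2 adipocyte, 0 oligodendrocyte, 2 neuron and 1 melanocyte markers averaged 1 FPKM or more. Most of their markers thus lay near the floor, and the 15.5% is not a like share for them. The 5 markers of oligodendrocytes, the myelinating glia of the central nervous system, summed to at most 0.997 FPKM in any library, with Opalin and Olig2 listed at 0 in all 8 libraries. The 9 neuron markers summed to 5.77 to 11.7 FPKM in pericytes and 32.9 to 44.8 FPKM in SMCs, mostly from Stmn2 and Prph. Of the 9 markers, Stmn2 and Prph passed as higher in SMCs, Nefh passed as higher in pericytes (log2 difference 0.75, limma q = 0.00612), and 6 were not called. The median log2 difference of the 8 markers tested, called or not, was 0.03. Chat was listed at 0 in all 8 libraries and was not tested. The part of these cells in the levels of the 7 genes was not tested.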

How the data were processed

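RNA from FACS-sorted pericytes and SMCs was amplified with SMART-Seq v4 and made into Nextera XT libraries. Per the labels and methods, reads were aligned with TopHat and Bowtie2 to NCBI Build 37 with Ensembl gene models. The authors deposited FPKM per gene, and the program that computed FPKM, its strand setting and the depth are not given in the sources used here. A raw count table named in the labels was not used here. Columns were matched to libraries by name. The 7 genes and all gene lists were chosen with earlier results of these data known. The methods call the libraries biological replicates pooled from several sorts, and no source used here says which animals went into which library, so p-values measure the spread between these libraries only.

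Values were transformed as log2(FPKM + 1) with a pseudocount of 1. The 27414 genes above 0 in at least 1 library were fitted with limma 3.58.1 in R 4.3.3 on all 8 libraries with group as the only term, and q values are Benjamini-Hochberg adjusted over all of them. The call threshold was a q value of 0.05. On simulated data for 27414 genes, 197 of 200 genes changed by 4 on the log2 scale were recovered, with 4 false calls among the unchanged genes. A call there also required a log2 difference of more than 2, and the simulated libraries were independent. The simulation thus does not gauge calls by q value alone, differences as small as those of the 7 genes, or spread shared between libraries. Named genes were the 7 genes, their nearest annotated neighbours and the genes most like them in pattern. The rule also named the listed Schwann cell genes that passed and the 2 most abundant genes of each list. Drp2, Nefh, Gfap, Fabp7, Gal3st1, Ncmap, markers listed at 0 and the sex-linked genes were named after their values were seen. Some genes that the rule would name are not reported here. Ncmap was first matched to AI464131, which RefSeq lists as a synonym of Myorg, and was rematched to A330049M08Rik after values were seen. Pou3f1 has 2 entries, of which the higher was used. Tables were made with Python 3.11.15, pandas 2.3.3 and numpy 2.4.6. Alternatives were another pseudocount, a filter on low values, 3 other scalings, an intensity trend, a replicate block, a covariate for replicates 1 and 2 against 3 and 4, and leaving out each library.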

Additional observations from a re-analysis of the deposited data

How the results depend on the processing

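With a pseudocount of 0.1 the log2 difference of Sox10 turned from 0.40 to -0.0046, and leaving out each library gave -0.08 to 0.95. It was -0.078 without pericyte library 3 and -0.023 without pericyte library 4. The same pseudocount raised SMC-enriched genes (limma q below 0.05 and over 2 on the log2 scale) from 728 to 1421 and pericyte-enriched genes from 888 to 1328. Cdh19, at -1.17, passed with the filter at 1 FPKM (q = 0.0256) and with the covariate for replicates 1 and 2 against 3 and 4 (q = 0.0386), and ranged from -1.35 to -0.80 with a library left out. Mag, at 0.66, passed with that covariate (limma q = 0.0207) and ranged from 0.21 to 1.15. The count of other Schwann cell genes higher in pericytes was 1 to 2 with a library left out. Prx, with no test, was -0.0069 with TPM scaling and ranged from -0.48 to 0.96 with a library left out. Its sign thus rests on the scaling and on single libraries. Mbp ranged from 0.09 to 0.93, Pmp22 from -1.29 to -0.61 and S100b from -1.11 to -0.55. All 9 Schwann cell genes that passed kept their call in the alternatives that kept every library and tested them, and the filter dropped Ngfr and Gap43. Scaling to TPM moved the median log2 difference of the 13612 genes from 0.05 to -0.16. The causes were not tested.

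A replicate block in the fit gave 2978 pericyte-higher and 3175 SMC-higher genes, against 2917 and 3060, and 11 other Schwann cell genes were higher in SMCs, against 8. With the block, none of the 6 tested members changed its call, with limma q = 0.0545 for Mag, 0.0779 for Mbp and 0.0715 for Cdh19. The covariate for replicates 1 and 2 against 3 and 4 gave 3794 pericyte-higher and 3929 SMC-higher genes. Of the other Schwann cell genes, 12 were higher in SMCs with that covariate and 6 with the filter at 1 FPKM. Same-numbered libraries correlated by 0.327 on average (0.0794 to 0.474) in their deviations from group means, libraries of unlike number within 1 and 2 or within 3 and 4 by 0.330, and 5 of 8 libraries correlated best with their own number. In pairs 3 and 4 the values were 0.437 and 0.474, above 0.209 and 0.263 for the crossed libraries. In pairs 1 and 2 they were 0.0794 and 0.319, beside 0.310 and 0.538 for the crossed libraries. Pairing by number is thus not borne out for libraries 1 and 2.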
